A study of Homo sapiens with 18 samples.

Results

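The pentose phosphate pathway and the cytosolic and mitochondrial enzymes that make NADPH are described here through 9 genes, PGLS, PGD, RPIA, RPE, TKT, TALDO1, ME1, IDH1 and IDH2. They are taken by symbol, and each matched 1 of the 62649 gene IDs in the count tables. The tables hold mRNA sequencing counts of 2 human lung lines kept for 4 h under the test atmosphere on inserts at the air-liquid interface, with 3 libraries in each of 6 groups: BEAS-2B cells in complete wood smoke, in filtered wood smoke or in clean air, and A549 cells in the same 3 atmospheres. BEAS-2B cells are bronchial cells immortalised with viral genes, and A549 cells were grown out of a lung adenocarcinoma of alveolar type. Both were labelled wild type and came from ATCC, a cell repository. The series sets complete smoke beside filtered smoke to ask what the gas phase contributes. Separate cultures are not stated for the 3 samples of a group, so each p-value sets a difference against a spread that may be only technical.

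NADPH is the electron donor that cells spend on reducing glutathione and thioredoxin, on reducing carbonyl compounds and on making lipids. The oxidative branch of the pentose phosphate pathway makes it, and 2 of its enzymes are among the 9 genes: PGLS hydrolyses 6-phosphogluconolactone, and PGD oxidises 6-phosphogluconate to ribulose 5-phosphate with release of NADPH. In the non-oxidative branch RPIA and RPE interconvert the pentose phosphates, and TKT and TALDO1 pass carbon between the pentose phosphates and glycolytic sugars. ME1, the cytosolic malic enzyme, IDH1, the cytosolic and peroxisomal isocitrate dehydrogenase, and IDH2, its mitochondrial counterpart, make NADPH from malate or isocitrate. PGD, TKT, TALDO1, ME1 and IDH1 are known targets of NRF2, the transcription factor of the oxidative stress response, which binds antioxidant response elements together with a small MAF protein. A549 is known to carry an inactivating change of KEAP1, the protein that marks NRF2 for degradation.

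The promoters that hold the core letters of such an element are shown, a choice made with the results below known. They belong to 4 genes. RPE, ME1 and IDH1 were not called higher in any smoke comparison, while PGD was called higher in filtered smoke of both lines. The core was searched as TGACNNNGC on both strands of RefSeq promoter windows (GRCh38.p14) that run 250 bases before and 50 bases after an annotated start. All 9 genes matched the table, with 10 windows in all, since IDH1 has 2. The core letters stood in 4 of the 10 windows (40%), beside 4687 of all 35116 windows (13.3%). The 10 windows are few and come from a set that includes known NRF2 targets, so these shares are given with no test. The 250 bases before the start are printed 5′ to 3′ in the direction of the gene, with the core in capitals.
PGD (chr1:10398814-10399063, plus strand): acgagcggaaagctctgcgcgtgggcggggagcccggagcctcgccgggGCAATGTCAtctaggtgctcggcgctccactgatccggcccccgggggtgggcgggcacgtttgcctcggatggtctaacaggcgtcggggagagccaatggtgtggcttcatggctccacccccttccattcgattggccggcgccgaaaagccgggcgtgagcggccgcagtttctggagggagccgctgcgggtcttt
RPE (chr2:210002388-210002637, plus strand): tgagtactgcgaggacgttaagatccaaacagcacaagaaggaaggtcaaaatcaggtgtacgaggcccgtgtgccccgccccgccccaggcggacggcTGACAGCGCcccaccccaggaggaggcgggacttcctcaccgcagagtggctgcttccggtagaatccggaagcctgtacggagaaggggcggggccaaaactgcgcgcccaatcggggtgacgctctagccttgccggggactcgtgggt
ME1 (chr6:83431052-83431301, minus strand): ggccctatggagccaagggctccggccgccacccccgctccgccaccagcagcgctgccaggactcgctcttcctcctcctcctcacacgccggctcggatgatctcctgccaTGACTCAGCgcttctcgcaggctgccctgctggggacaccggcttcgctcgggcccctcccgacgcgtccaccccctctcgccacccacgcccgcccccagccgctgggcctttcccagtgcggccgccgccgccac
IDH1 (chr2:208255072-208255321, minus strand): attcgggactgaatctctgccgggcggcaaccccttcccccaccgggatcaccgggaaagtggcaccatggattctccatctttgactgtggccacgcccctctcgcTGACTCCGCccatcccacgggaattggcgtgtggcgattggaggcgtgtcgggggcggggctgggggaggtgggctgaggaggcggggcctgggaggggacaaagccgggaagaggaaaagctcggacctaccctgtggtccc
In PGD the core lay on the opposite strand at position -201 from the start, as GCAATGTCA. In RPE it lay on the gene's strand at position -151 as TGACAGCGC, and in IDH1 at position -143 as TGACTCCGC. In ME1 it lay at position -137 as TGACTCAGC, where it overlaps TGACTCA, the letters that AP-1 is known to bind, and a further match of ME1 lay after the start. The windows of PGLS, RPIA, TKT, TALDO1 and IDH2 and the other window of IDH1 held no such letters, which says nothing of elements elsewhere. The windows of PGD, IDH1 and IDH2 lie inside the gene bounds of the annotation used here for lengths, GENCODE release 29. A match of letters is a description and not a bound site.

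Gene counts per library, in units of 1e6, ranged from 14.4 to 55.0. A member's count in a library ranged from 203 to 58535. BEAS-2B complete smoke sample 3 stood apart, with 31.7% of its reads mapping to several places and 12.6% of its uniquely mapped reads outside genes. Complete smoke samples 1 and 2 had 12.9% and 10.2% multimapping and 1.40% and 1.22% outside genes. BEAS-2B clean air sample 1 lay nearer to the smoke libraries than clean air samples 2 and 3 did for 8 of the 9 genes, RPE being the exception. Library size alone in place of TMM scaling shifts the median log2 fold change of all genes in BEAS-2B cells to -0.75 in complete smoke and to -0.74 in filtered smoke, against -0.06 and -0.07 with TMM, so the changes of BEAS-2B cells are relative to the scaling. In A549 cells that median is -0.10 in complete and -0.15 in filtered smoke with library size alone. All 5 epithelial markers were above 1 CPM in every group, with summed levels of 4611 to 11760 CPM in complete smoke, 6313 to 11300 CPM in filtered smoke and 2253 to 5597 CPM in clean air for BEAS-2B cells. They were 6208 to 10800 CPM in complete smoke, 6978 to 13030 CPM in filtered smoke and 5076 to 6683 CPM in clean air for A549 cells. Of 15 markers of other lung cell types, 4 to 7 averaged 1 CPM or more in a group. In BEAS-2B cells they summed to 361.7 to 601.8 CPM in complete smoke, 496.4 to 657 CPM in filtered smoke and 629.4 to 1058 CPM in clean air, most of it COL1A1. In A549 cells they summed to 49.11 to 75.62 CPM in complete smoke, 52.62 to 54.38 CPM in filtered smoke and 74.85 to 105.8 CPM in clean air. Of the 5 epithelial markers, 2 were called higher and 1 lower than in clean air in each smoke of BEAS-2B cells, and in A549 cells 1 was higher in complete and 4 in filtered smoke. Of all genes tested 21.5% were higher and 19.5% lower in complete and 23.6% and 24.9% in filtered smoke of BEAS-2B cells. In A549 cells these shares were 15.6% and 16.9% in complete and 23.1% and 23.5% in filtered smoke. They stand beside every marker count of this paragraph, and no set of markers was tested. CDH1, the epithelial cadherin, was lower in BEAS-2B cells, at -1.29 in complete and -1.37 in filtered smoke (log2), and the keratins KRT18 and KRT19 were higher, KRT19 at 1.40 and 1.51. Of the 7 markers of other cell types tested in BEAS-2B cells, 1 was higher and 4 lower in complete smoke, and 1 higher and 2 lower in filtered smoke. MUC5AC, a mucin of goblet cells, had at most 0.0357 CPM in complete and 0.0278 CPM in filtered smoke, against 1.42 to 2.25 CPM in clean air, and ACTA2, the smooth muscle actin, was higher at 1.82 and 1.93. The other mesenchymal markers averaged less in smoke. COL1A1 had 362 CPM in complete and 411 CPM in filtered smoke against 747 CPM in clean air, and COL1A2 had 11.1, 14.3 and 18.5 CPM. Of the 6 tested in A549 cells, 1 was higher and 1 lower in complete smoke, and 1 higher and 2 lower in filtered smoke. FOXJ1, the factor of ciliated cells, was higher there (1.83 and 2.45), and TP63, the factor of basal cells, was lower in both smokes of BEAS-2B cells (-1.46 and -1.70) and of A549 cells (-1.27 and -1.14). KRT5, the other basal marker, did not fall in BEAS-2B cells, with averages of 113 CPM in complete smoke, 132 CPM in filtered smoke and 111 CPM in clean air. The part of these markers in the results below was not tested. The alveolar markers SFTPB and SFTPC of A549 cells were at or near 0, with at most 6 counts in all over a group, so these defining markers were all but absent, and the leukocyte marker PTPRC had at most 6 counts over a group in either line. In bulk samples fewer cells of a type and less RNA per cell cannot be told apart.

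In clean air 5 of the 9 genes were called between the lines (plot of levels per length). BEAS-2B cells had less PGD, TKT, ME1 and IDH1 mRNA than A549 cells and more RPIA mRNA, while PGLS, RPE, TALDO1 and IDH2 were not called. Of all 17703 genes tested 55.4% were called in this comparison, 27.3% higher and 28% lower in BEAS-2B cells, and the line and the set of libraries cannot be told apart. The count of 5 of 9 lies near that share, so it is no result about the 9 genes. Calls are Benjamini-Hochberg adjusted p-values under 0.05 over all genes tested, from edgeR's quasi-likelihood test, and every adjusted p below is from that test unless another is named. Levels are CPM, that is counts relative to library size, scaled by TMM over all 18 libraries, in the order of samples 1, 2 and 3.

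PGD had 217.6, 158.6 and 139.3 CPM in BEAS-2B cells and 998.9, 847.2 and 993.6 CPM in A549 cells. The groups lay far apart, at -2.46 ± 0.21 on the log2 scale (SE, adjusted p = 3.66e-08). IDH1 had 27.5, 36.79 and 35.86 CPM in BEAS-2B cells and 161, 137.8 and 163.6 CPM in A549 cells. They again did not overlap, at a log2 fold change of -2.21 ± 0.25 (adjusted p = 1.22e-06). TKT had 561.4, 403.8 and 306 CPM in BEAS-2B cells, against 1442, 1276 and 1205 CPM in A549 cells, which is -1.63 ± 0.35 on the log2 scale (adjusted p = 0.000776). ME1 had 29.73, 40.68 and 37.86 CPM in BEAS-2B cells, against 99.98, 85.1 and 102.3 CPM in A549 cells, which is -1.41 ± 0.20 on the log2 scale (adjusted p = 1.42e-05). RPIA ran the other way, with 23.72, 17.45 and 18.08 CPM in BEAS-2B cells and 10.81, 10.44 and 10.4 CPM in A549 cells and a difference of 0.90 ± 0.24 on the log2 scale (adjusted p = 0.00447). Of the 5 known NRF2 targets 4 were thus lower in BEAS-2B cells, where 28% of all genes were lower. The part of NRF2 or KEAP1 in this was not tested, and the line and the set of libraries cannot be told apart. The other target, TALDO1, had 410.1, 208.5 and 209.1 CPM in BEAS-2B cells and 255, 223.2 and 218.9 CPM in A549 cells. The sign of TALDO1 rested on 1 library, since its difference of 0.25 ± 0.28 (log2, adjusted p = 0.467) became -0.15 without BEAS-2B clean air sample 1. PGLS was at 0.79 ± 0.44 (adjusted p = 0.132). It was called without BEAS-2B clean air sample 3, at 1.14 (adjusted p = 0.0422), and was at 0.18 without sample 1.

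Per kilobase of the principal transcript the order of the genes also differed between the lines. In A549 clean air cells PGD (502.2 ± 45.7 CPM per kb, SD, n = 3) and TKT (434.4 ± 40.5) stood highest and did not separate from each other, since their ranges of 449.5 to 529.9 and 400.2 to 479.2 CPM per kb overlapped. TALDO1 (172.6 ± 14.6), IDH1 (63.1 ± 5.8), and a pair that touched, ME1 (28.4 ± 2.8) and PGLS (26.6 ± 1.8), came next. RPE (18.03 ± 0.74), IDH2 (11.6 ± 0.7) and RPIA (5.7 ± 0.1) followed without overlap. In BEAS-2B clean air cells TALDO1 (205 ± 86 CPM per kb), TKT (140.8 ± 42.8) and PGD (91.2 ± 21.6) headed the order, each overlapping its neighbour. PGLS (46.06 ± 27.95) had the widest spread for its level and overlapped PGD, and RPE (17.66 ± 3.08) followed. RPIA (10.7 ± 1.9), ME1 (10.7 ± 1.7), IDH2 (10.3 ± 1.9) and IDH1 (13.7 ± 2.1) lay together at the low end. PGD and TKT made up 78.6% to 79.4% of the summed CPM of the 9 genes in A549 clean air libraries and 52.6% to 57.6% in BEAS-2B clean air libraries.

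**Figure D1:**
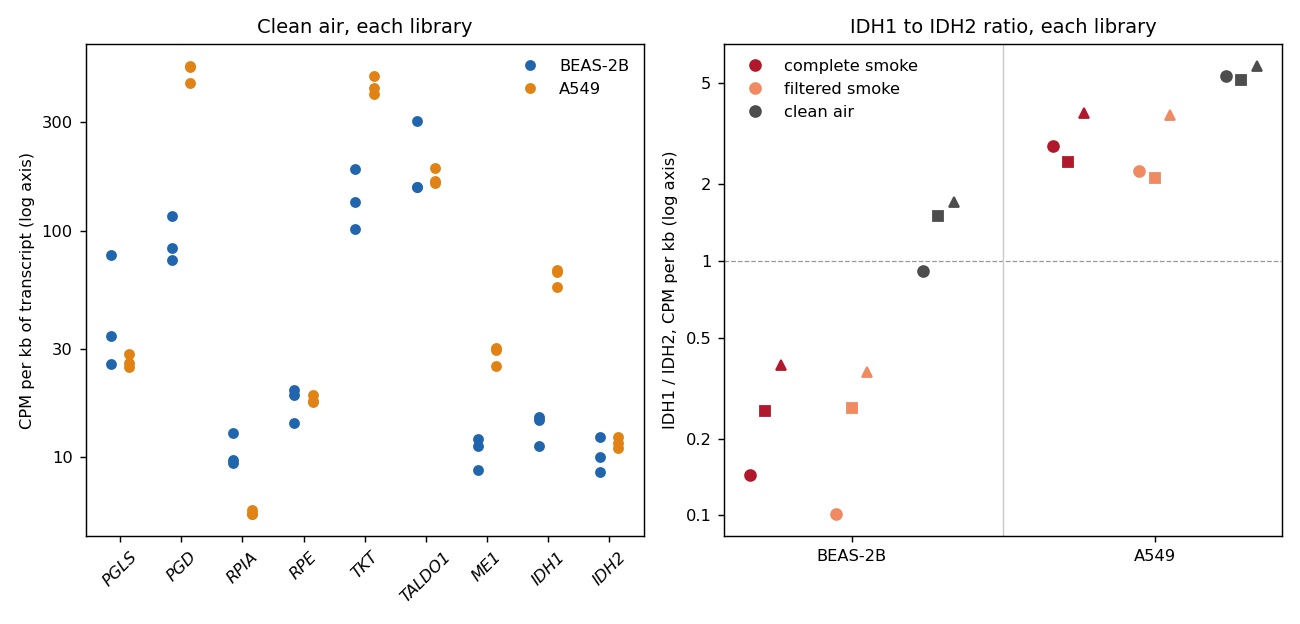
Left, level of each gene per kilobase of its principal transcript in the 3 clean air libraries of BEAS-2B cells and of A549 cells, on a log axis. Right, ratio of IDH1 to IDH2 (CPM per kb, log axis) in each library, with circles, squares and triangles for samples 1, 2 and 3; in both lines every smoke library lies below every clean air library.

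In BEAS-2B cells the genes called in smoke were all higher than in clean air, and they came from both branches of the pathway and from the mitochondrial dehydrogenase IDH2 (plot of levels by library). In complete smoke 4 of the 9 genes were higher than in clean air, PGLS, RPIA, TALDO1 and IDH2, and none lower, where 41% of all 16356 genes tested were called, 21.5% higher and 19.5% lower. Counted in either direction, 4 of 9 lies near the 41% of all genes, so that count is no result about the 9 genes. In filtered smoke 6 of 9 were higher, PGLS, PGD, RPIA, TKT, TALDO1 and IDH2, and none lower, where 48.6% of all genes were called, 23.6% higher and 24.9% lower. The median log2 fold change of the 9 genes was 0.96 in complete smoke and 0.998 in filtered smoke, against -0.06 and -0.07 over all genes. The comparisons share their clean air libraries, so they do not stand for each other as independent evidence.

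PGLS, the lactonase, had 267.8, 188.1 and 83.75 CPM in complete smoke and 296.9, 175.9 and 132.9 CPM in filtered smoke, against 80.13, 35.35 and 26.56 CPM in clean air. The lowest smoke library, complete smoke sample 3, was barely above the highest clean air library, sample 1. The log2 fold change was 1.89 ± 0.54 in complete smoke (3.71-fold, adjusted p = 0.0226) and 2.05 ± 0.54 in filtered smoke (4.15-fold, adjusted p = 0.0152). PGD, the NADPH-releasing step, had 279.7, 281.9 and 188.6 CPM in complete smoke and 284.7, 292.5 and 263 CPM in filtered smoke, against 217.6, 158.6 and 139.3 CPM in clean air. Complete smoke sample 3 fell among the clean air libraries, while the filtered libraries lay above all of them. The log2 fold change of 0.54 ± 0.24 in complete smoke was not called (adjusted p = 0.095) and turns to -0.13 with library size alone. That of 0.69 ± 0.24 in filtered smoke was (adjusted p = 0.0396).

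In the non-oxidative branch RPIA had 54.6, 41.98 and 31.13 CPM in complete smoke and 47.5, 34.07 and 38 CPM in filtered smoke, against 23.72, 17.45 and 18.08 CPM in clean air. No smoke library overlapped clean air, at log2 fold changes of 1.11 ± 0.25 in complete smoke (adjusted p = 0.0103) and 0.998 ± 0.25 in filtered smoke (adjusted p = 0.0128). TALDO1 had 640.1, 580.8 and 410.5 CPM in complete smoke and 618.4, 557 and 521.7 CPM in filtered smoke, against 410.1, 208.5 and 209.1 CPM in clean air. Its log2 fold changes were 0.96 ± 0.32 in complete smoke (adjusted p = 0.0371) and 1.01 ± 0.32 in filtered smoke (adjusted p = 0.0283), although complete smoke sample 3 exceeded clean air sample 1 by under 1 CPM. TKT had 1196, 1112 and 448.3 CPM in complete smoke and 1284, 1141 and 701.8 CPM in filtered smoke, against 561.4, 403.8 and 306 CPM in clean air. Complete smoke sample 3 lay inside the clean air range, and the log2 fold change of 1.10 ± 0.40 was not called (adjusted p = 0.0527). That of 1.28 ± 0.40 in filtered smoke was (adjusted p = 0.0286). RPE, the epimerase, had 54.02, 51.12 and 57.58 CPM in complete smoke and 39.9, 47.7 and 51.27 CPM in filtered smoke, against 36.35, 48.56 and 51.18 CPM in clean air. Its log2 fold changes were 0.28 ± 0.18 in complete smoke (adjusted p = 0.226) and 0.03 ± 0.18 in filtered smoke (adjusted p = 0.889).

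The isocitrate dehydrogenases differed in the sign of their fold change. IDH2, the mitochondrial enzyme, had 103.4, 91.78 and 54.68 CPM in complete smoke and 115.7, 90.78 and 71.47 CPM in filtered smoke, against 33.29, 27.07 and 23.15 CPM in clean air. It had the smallest adjusted p of the 9 genes, with log2 fold changes of 1.58 ± 0.28 in complete smoke (2.98-fold, adjusted p = 0.00458) and 1.72 ± 0.28 in filtered smoke (3.29-fold, adjusted p = 0.00369). IDH1, the cytosolic enzyme, had 13.46, 21.37 and 19.29 CPM in complete smoke and 10.62, 21.73 and 23.7 CPM in filtered smoke, against 27.5, 36.79 and 35.86 CPM in clean air. Every smoke library lay below every clean air library, yet the log2 fold changes of -0.86 ± 0.31 in complete smoke (adjusted p = 0.0508) and -0.83 ± 0.31 in filtered smoke (adjusted p = 0.0505) just missed the threshold. ME1 had 27.5, 31.96 and 25.58 CPM in complete smoke and 22.14, 33.79 and 28.4 CPM in filtered smoke, against 29.73, 40.68 and 37.86 CPM in clean air. The groups overlapped, at log2 fold changes of -0.33 ± 0.20 in complete smoke (adjusted p = 0.206) and -0.36 ± 0.20 in filtered smoke (adjusted p = 0.16).

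**Figure D2:**
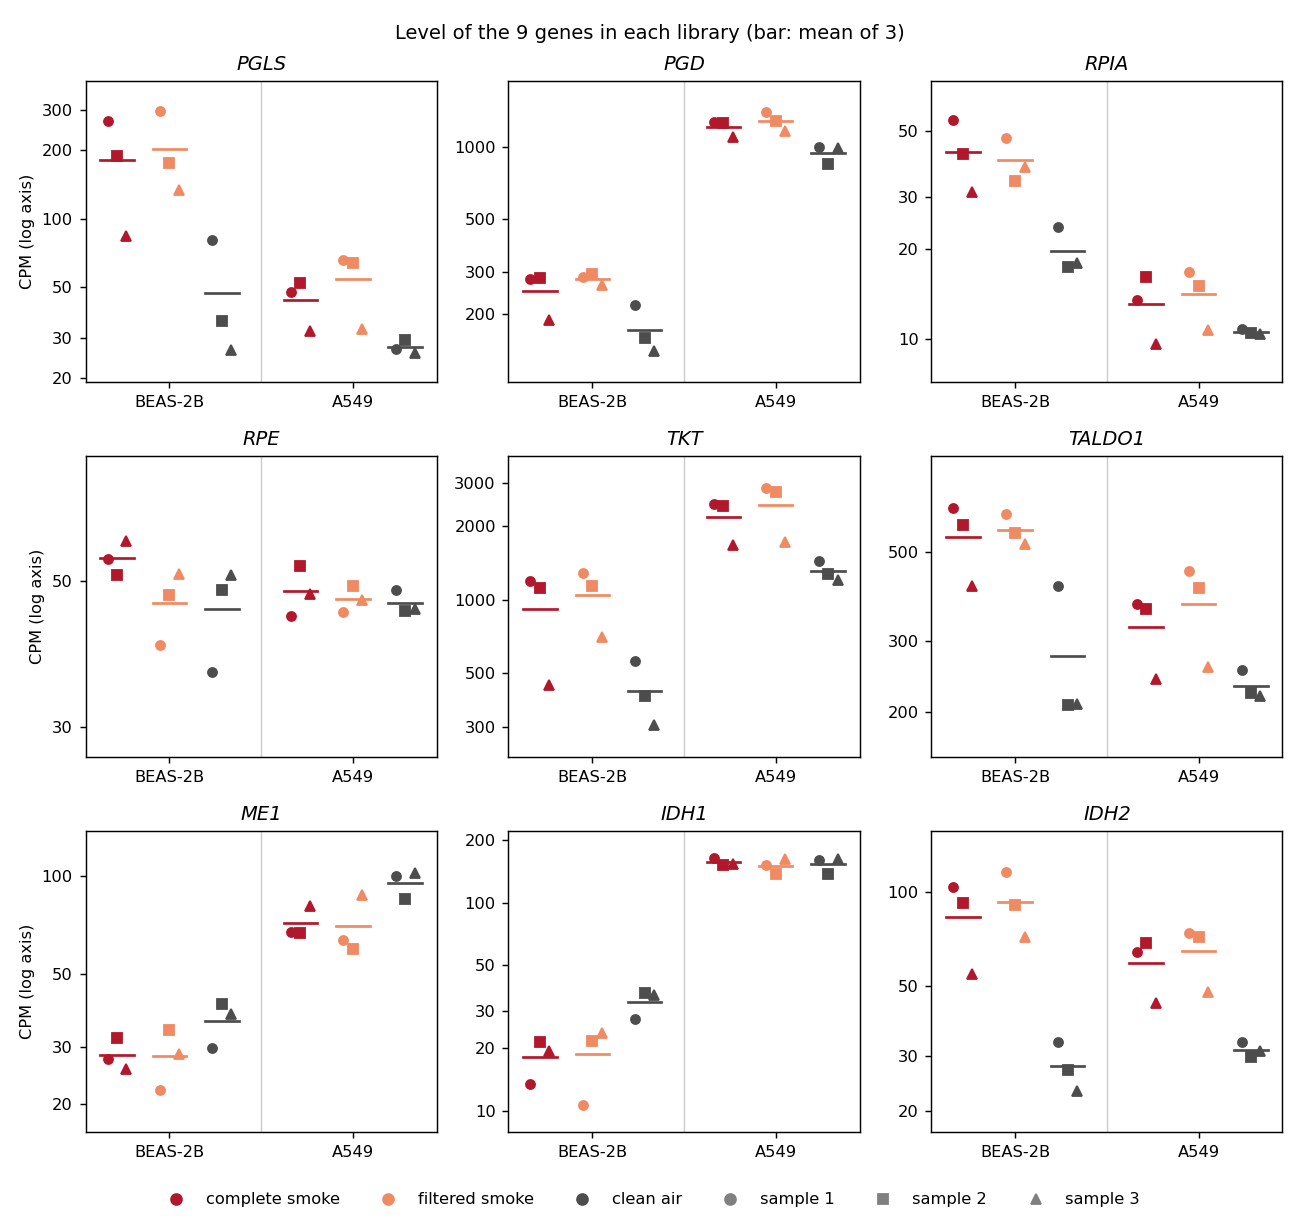
CPM of the 9 genes in each of the 18 libraries on log axes, one panel a gene, with complete smoke, filtered smoke and clean air from left to right within each line, marker shapes for samples 1, 2 and 3, and a bar at the mean of 3. IDH2 separates smoke from clean air in both lines, IDH1 does so in BEAS-2B cells with smoke below clean air, and sample 3 lies nearest to clean air among the smoke libraries for PGLS, PGD, TKT, TALDO1 and IDH2 in both lines.

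Scaling and single libraries weighed on these calls. With library size alone PGLS and IDH2 were still called higher in both smokes, RPIA, TALDO1, TKT and PGD were not called, and ME1 (-1.03 in complete and -1.04 in filtered smoke) and IDH1 (-1.53 and -1.49) were called lower. With the sample number as a block, ME1 (-0.37, adjusted p = 0.0288) and IDH1 (-0.90, adjusted p = 0.000993) were also called lower in filtered smoke. Pairs are not established there, since clean air sample 2 ran closer to filtered sample 3 (correlation of 0.402) than to filtered sample 2 (0.148). Without complete smoke sample 3, 7 of the 9 genes were called in complete smoke, PGD (0.69), TKT (1.42) and IDH1 (-0.95) being added, and without clean air sample 1 the count was 6. Of all genes 9026 and 8298 were called in these fits, against 6704 with every library. Leaving out complete smoke sample 1, complete smoke sample 2, clean air sample 2 or clean air sample 3 left 2 called genes, RPIA and IDH2, in complete smoke. Of all genes 2916 to 3757 were then called. In filtered smoke the count fell to 2 without filtered sample 1, to 3 without filtered sample 2 and to 1, IDH2, without clean air sample 2 or clean air sample 3. Over all genes these fits called 3652 to 4735, against 7947 with every library. Without clean air sample 1 and complete smoke sample 3 together, 6 genes were called higher in complete smoke, with PGD at 0.97 and TKT at 1.75. Of all genes 10616 were called in that fit. For these 6 genes the libraries left out were the clean air library nearest to smoke and the complete smoke library nearest to clean air. Larger fold changes without them come with that choice and are no support.

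In A549 cells the called genes were again all higher in smoke than in clean air, and TKT and IDH2 were called in both smokes. In complete smoke 2 of the 9 genes were higher than in clean air, TKT and IDH2, and none lower, where 32.5% of all 15244 genes tested were called, 15.6% higher and 16.9% lower. In filtered smoke 5 of 9 were higher, PGLS, PGD, TKT, TALDO1 and IDH2, and none lower, where 46.7% of all genes were called, 23.1% higher and 23.5% lower. Counted in either direction, 2 and 5 of 9 lie near the shares of all genes, so these counts are no result about the 9 genes. The median log2 fold change of the 9 genes was 0.37 in complete smoke and 0.445 in filtered smoke, against 0.02 and 0.01 over all genes.

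PGLS had 47.51, 52.19 and 32.08 CPM in complete smoke and 66.04, 63.75 and 32.83 CPM in filtered smoke, against 26.74, 29.37 and 25.8 CPM in clean air. Neither smoke overlapped clean air, but sample 3 of each smoke lay close to it. The log2 fold change of 0.69 ± 0.26 in complete smoke was not called (adjusted p = 0.0661). That of 0.996 ± 0.265 in filtered smoke was (adjusted p = 0.0137). PGD had 1279, 1267 and 1101 CPM in complete smoke and 1401, 1285 and 1164 CPM in filtered smoke, against 998.9, 847.2 and 993.6 CPM in clean air. All smoke libraries lay above clean air, at log2 fold changes of 0.37 ± 0.15 in complete smoke (adjusted p = 0.0828) and 0.44 ± 0.15 in filtered smoke (adjusted p = 0.0348).

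TKT, the most abundant of the 9 mRNAs by CPM in A549 cells, had 2458, 2403 and 1667 CPM in complete smoke and 2864, 2760 and 1715 CPM in filtered smoke, against 1442, 1276 and 1205 CPM in clean air. Samples 1 and 2 of each smoke were near each other and sample 3 was lower. No smoke library overlapped clean air. The log2 fold changes were 0.74 ± 0.23 in complete smoke (1.67-fold, adjusted p = 0.0331) and 0.91 ± 0.23 in filtered smoke (1.88-fold, adjusted p = 0.0108). TALDO1 had 371.2, 360.9 and 241.6 CPM in complete smoke and 447.9, 405.6 and 259.3 CPM in filtered smoke, against 255, 223.2 and 218.9 CPM in clean air. Complete smoke sample 3 fell inside the clean air range, and the log2 fold change was 0.49 ± 0.23 in complete smoke (adjusted p = 0.114) and 0.68 ± 0.23 in filtered smoke (adjusted p = 0.0319). RPIA, the isomerase, had 13.52, 16.19 and 9.65 CPM in complete smoke and 16.82, 15.09 and 10.74 CPM in filtered smoke, against 10.81, 10.44 and 10.4 CPM in clean air. It was not called in A549 cells, at 0.32 ± 0.22 in complete smoke (adjusted p = 0.266) and 0.44 ± 0.22 in filtered smoke (adjusted p = 0.123). RPE had 44.3, 52.69 and 47.77 CPM in complete smoke and 44.87, 49.27 and 46.84 CPM in filtered smoke, against 48.52, 45.02 and 45.44 CPM in clean air. The groups overlapped, with log2 fold changes of 0.07 ± 0.13 in complete smoke (adjusted p = 0.702) and 0.03 ± 0.13 in filtered smoke (adjusted p = 0.872).

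IDH2 had 64.13, 68.72 and 44.35 CPM in complete smoke and 74.02, 71.95 and 47.8 CPM in filtered smoke, against 33.31, 29.72 and 31.06 CPM in clean air. It again had the smallest adjusted p of the 9 genes and no overlap, with log2 fold changes of 0.92 ± 0.21 in complete smoke (1.89-fold, adjusted p = 0.0125) and 1.05 ± 0.21 in filtered smoke (2.07-fold, adjusted p = 0.00467). IDH1 had 165, 152.9 and 153.6 CPM in complete smoke and 151.8, 138.2 and 162.6 CPM in filtered smoke, against 161, 137.8 and 163.6 CPM in clean air. Its groups overlapped, and the 95% intervals of its log2 fold change ran from -0.27 to 0.34 in complete smoke and from -0.33 to 0.28 in filtered smoke. ME1 had 67.64, 67.18 and 80.99 CPM in complete smoke and 63.83, 59.74 and 87.61 CPM in filtered smoke, against 99.98, 85.1 and 102.3 CPM in clean air. The complete smoke libraries lay below clean air and filtered sample 3 did not, at log2 fold changes of -0.41 ± 0.18 in complete smoke (adjusted p = 0.0981) and -0.44 ± 0.18 in filtered smoke (adjusted p = 0.0646).

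**Figure D3:**
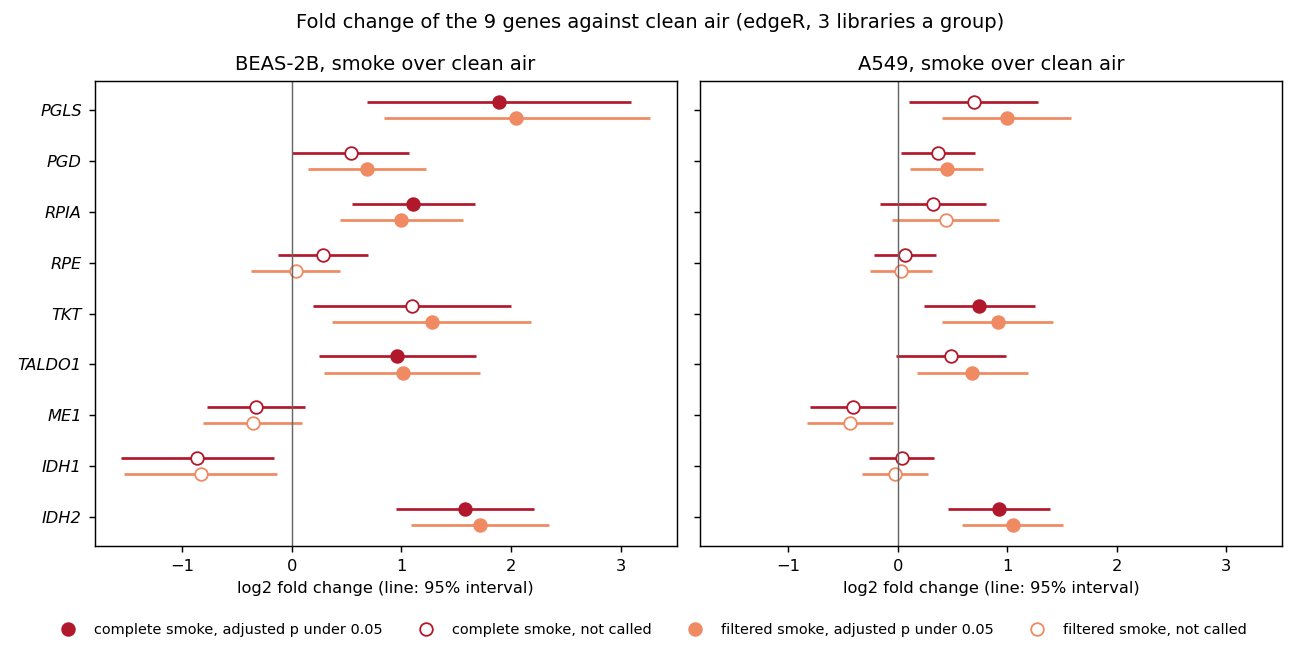
Log2 fold change over clean air with its 95% interval for the 9 genes in complete and in filtered smoke, BEAS-2B cells left and A549 cells right; filled points have an adjusted p under 0.05. IDH2 is filled in all 4 comparisons, RPE, ME1 and IDH1 in none.

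With the sample number as a block, which passed the 0.1 rule for pairs in A549 cells, 6 of 9 genes were called in complete smoke: PGLS (0.65, adjusted p = 0.00584), PGD (0.37, adjusted p = 0.0294), TALDO1 (0.46, adjusted p = 0.0148), TKT and IDH2 higher and ME1 lower (-0.41, adjusted p = 0.0108). The block called 8321 of all 15244 genes there. In filtered smoke the block added RPIA (0.41, adjusted p = 0.0448) as higher and ME1 (-0.45, adjusted p = 0.00485) as lower, where it called 9406 of all genes. Without complete smoke sample 3 the count in complete smoke was 4, with PGLS (0.87) and TALDO1 (0.66) added. It was 1, IDH2, without complete smoke sample 1, clean air sample 1 or clean air sample 3, and 0 without complete smoke sample 2, where IDH2 had an adjusted p of 0.0587, or clean air sample 2, where it was 0.0543. Of all genes 6805 were called without complete smoke sample 3 and 1422 to 2278 in the others of these fits, against 4951 with every library. In filtered smoke the count was 3 without clean air sample 1, 2 or 3, which ended the calls of PGD and TALDO1, and 2 without filtered sample 1 or 2, which ended that of PGLS as well. Over all genes these fits called 4006 to 4990, against 7112 with every library. With library size alone PGD (0.28) and TALDO1 (0.51) were not called in filtered smoke, and ME1 (-0.58) was called lower.

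A scaling factor for a whole library cancels in the ratio of IDH1 to IDH2, while offsets for GC content, length and span, which differ between genes, do not. Per kilobase it was 0.144, 0.257 and 0.389 in complete smoke and 0.101, 0.264 and 0.366 in filtered smoke, against 0.912, 1.5 and 1.71 in clean air, in BEAS-2B cells. In A549 cells it was 2.84, 2.46 and 3.82 in complete smoke and 2.26, 2.12 and 3.75 in filtered smoke, against 5.33, 5.12 and 5.81 in clean air. In both lines every smoke library had a lower ratio than every clean air library, and every A549 library had a higher ratio than every BEAS-2B library. With the offsets the fold changes of the 2 genes lay closer together. IDH1 and IDH2 were then at -0.71 and 1.06 in complete and at -0.67 and 1.06 in filtered smoke of BEAS-2B cells, and at 0.07 and 0.51 in complete and at 0.06 and 0.52 in filtered smoke of A549 cells (log2). The ratio was set up after the values were seen and is given with no test.

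Complete and filtered smoke were not told apart in any of the 9 genes. None of the 9 was called in either line, where 0% of all genes were called by edgeR in A549 cells and 0% in BEAS-2B cells, with the low-count filter and no block. At an unadjusted p under 0.05, 236 of 15244 genes (1.55%) passed in A549 cells and 222 of 16356 (1.36%) in BEAS-2B cells, and the DESeq2 Wald test called 2 genes in A549 cells and 0 in BEAS-2B cells. In A549 cells edgeR called 1 gene with the sample number as a block and 19 without the low-count filter, and in BEAS-2B cells 0 with either, and none of these was among the 9. The log2 fold change of complete over filtered smoke ran from -0.18 (TKT) to 0.25 (RPE) in BEAS-2B cells, with 95% intervals reaching from -1.33 (PGLS) to 1 (PGLS). In A549 cells it ran from -0.30 (PGLS) to 0.06 (IDH1), with intervals reaching from -0.88 to 0.43. These intervals leave room for sizeable differences, so the 2 smokes are not shown to act alike. For PGLS the interval was -1.33 to 1 in BEAS-2B cells and -0.88 to 0.28 in A549 cells, and for IDH1 it was -0.73 to 0.67 in BEAS-2B cells and -0.24 to 0.36 in A549 cells. The intervals come from the fit without the block, although same-numbered samples of the 2 smokes passed the 0.1 rule for pairs in both lines. With the block PGLS was at -0.21 ± 0.17 in BEAS-2B cells, against 0.52 as its SE without it, and at -0.28 ± 0.16 in A549 cells, against 0.26 (log2).

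The lines were also compared in the size of their response, as the BEAS-2B minus the A549 log2 fold change in one fit of all 18 libraries. None of the 9 genes was called in complete smoke, where 1.74% of all 17703 genes were called (0.565% higher, 1.17% lower), or in filtered smoke, where 0.825% were (0.311% higher, 0.514% lower). At an unadjusted p under 0.05, 3070 genes (17.3%) passed in complete smoke and 2449 (13.8%) in filtered smoke, and DESeq2 called 913 and 634. In complete smoke the largest differences were 1.24 ± 0.61 for PGLS (adjusted p = 0.308), -0.92 ± 0.34 for IDH1 (adjusted p = 0.186), 0.79 ± 0.34 for RPIA (adjusted p = 0.242) and 0.67 ± 0.36 for IDH2 (adjusted p = 0.356). In filtered smoke they were 1.10 ± 0.61 for PGLS (adjusted p = 0.439), -0.80 ± 0.34 for IDH1 (adjusted p = 0.305), 0.69 ± 0.36 for IDH2 (adjusted p = 0.409) and 0.58 ± 0.34 for RPIA (adjusted p = 0.464). With the sample number as a block within each line, 3 genes were called in filtered smoke, PGLS at 1.25 (adjusted p = 0.0036), IDH1 at -0.86 (adjusted p = 0.00703) and IDH2 at 0.71 (adjusted p = 0.0246). In that fit 2742 of all 17703 genes were called. Without BEAS-2B clean air sample 1 and complete smoke sample 3 together, 5 genes were called in complete smoke, PGLS at 2.19, RPIA at 1.13, TALDO1 at 1.07, IDH2 at 1.04 and IDH1 at -1.09, and PGLS alone in filtered smoke, at 1.71. Of all genes, 3774 were called in complete and 905 in filtered smoke in that fit, against 308 and 146 with all 18 libraries. For the higher genes the libraries left out lay nearest to the other exposure, so larger differences without them come with the choice and are no support.

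The fold changes of the 9 genes and of the other protein-coding genes tested ran with the GC content of their transcripts (plot of fold change against GC content). RPE, ME1 and IDH1, which were called higher in none of the 4 comparisons, had the lowest GC contents, 43.4%, 39.5% and 43.7%, and the other 6 had 48.6% (RPIA) to 63.4% (PGLS). Over all tested protein-coding genes other than the 9, in quintiles of GC content, the median log2 fold change in BEAS-2B cells was -0.53 in the lowest quintile and 0.36 in the highest in complete smoke, and -0.77 and 0.54 in filtered smoke. In A549 cells it was -0.25 in the lowest and 0.39 in the highest quintile in complete smoke, and -0.36 and 0.51 in filtered smoke. Short gene spans went with higher values too: in complete smoke the median was 0.68 in the shortest and -0.57 in the longest quintile of genes in BEAS-2B cells, and 0.54 and -0.54 in A549 cells. PGLS spans 9.66 kb and ME1 220.7 kb. With offsets that remove the trends with GC content, exonic length and span in each library, IDH2 (0.51 in complete and 0.52 in filtered smoke) and TKT (0.88 and 1.08) were still called in A549 cells. The fold changes of IDH2 were 0.92 and 1.05 without them. They ended calls in filtered smoke of A549 cells, where PGLS (0.19), TALDO1 (0.23) and PGD (0.07) were no longer called. In complete smoke of BEAS-2B cells PGLS (1.34), RPIA (0.49), TALDO1 (0.58) and IDH2 (1.06) were still called with smaller fold changes, and TKT was called as well (1.30, adjusted p = 0.011). In filtered smoke of BEAS-2B cells PGLS (1.33), TKT (1.38) and IDH2 (1.06) were still called. The offsets ended the calls of PGD (0.18), RPIA (0.38, adjusted p = 0.0546) and TALDO1 (0.50, adjusted p = 0.0594) there. IDH1 was called lower with them in BEAS-2B cells, in complete smoke (-0.71, adjusted p = 0.0243) and in filtered smoke (-0.67, adjusted p = 0.0285). The share of multimapping reads moved with the exposure too, at 10.2% to 31.7% in complete smoke, 10.8% to 19.2% in filtered smoke and 7.69% to 9.08% in clean air in BEAS-2B cells. In A549 cells it was 10.3% to 11.8% in complete smoke, 10.3% to 12.0% in filtered smoke and 9.63% to 10.2% in clean air. Its part in these results was not tested.

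**Figure D4:**
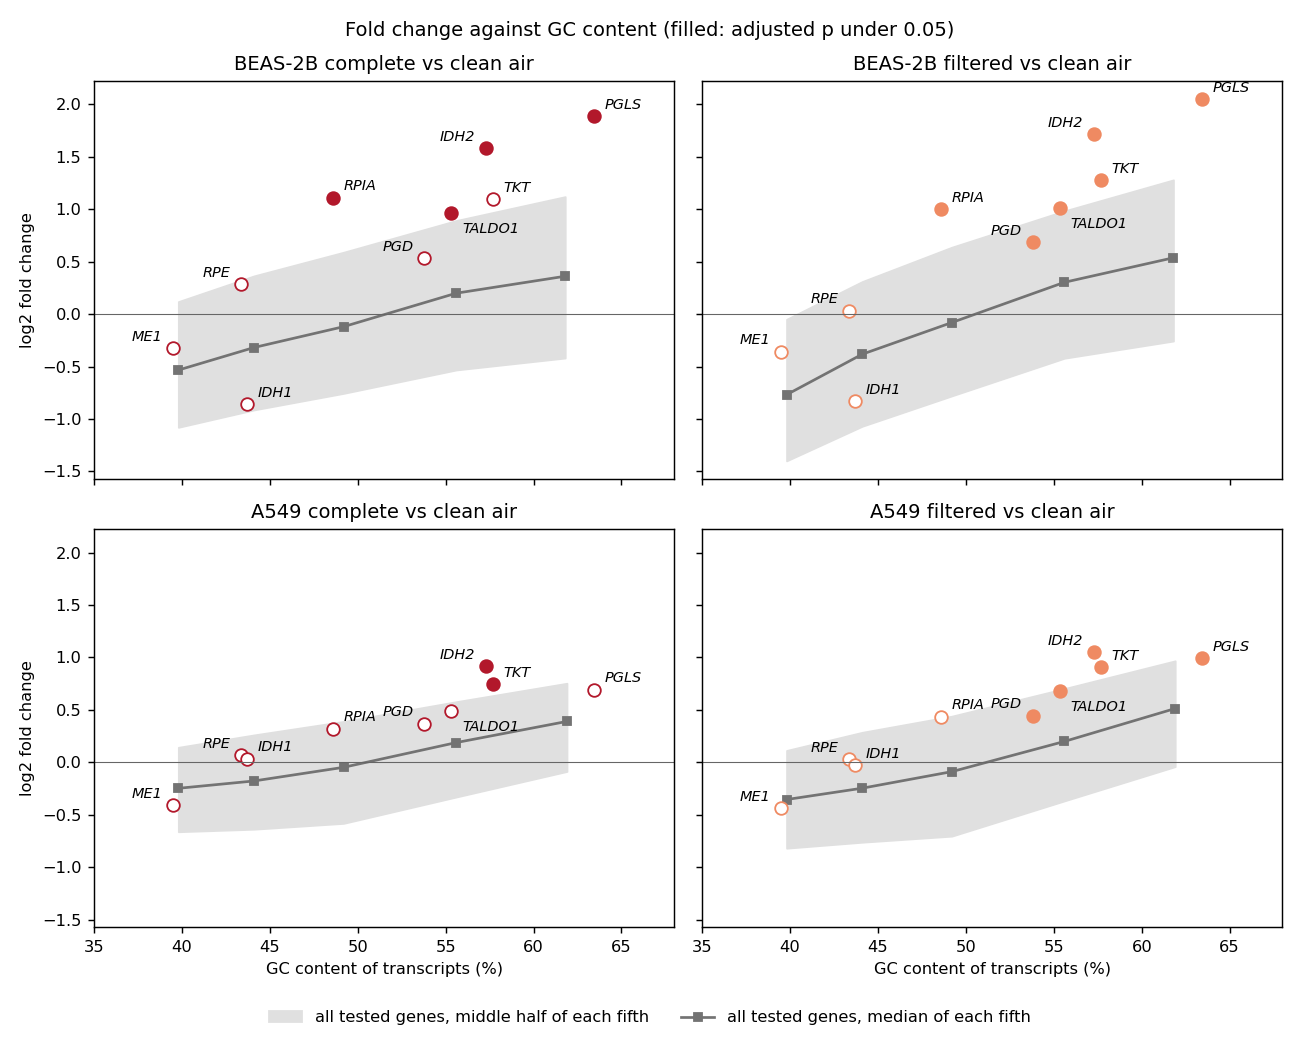
Log2 fold change of the 9 genes (points, filled where the adjusted p is under 0.05) against GC content of their transcripts in the 4 smoke comparisons, over the median and the interquartile range of the other tested protein-coding genes in each quintile of GC content (grey, labelled all tested genes). ME1, RPE and IDH1 lie at the low-GC end and IDH2, TKT and PGLS lie above the grey band, except PGLS in complete smoke of A549 cells. In BEAS-2B cells RPIA and, narrowly, TALDO1 lie above it as well.

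Of 11 other pentose phosphate and pentose salvage genes, 8 were tested in each line, and their median log2 fold change was 0.63 in complete and 0.55 in filtered smoke of BEAS-2B cells and 0.29 and 0.3 in A549 cells. In BEAS-2B cells 5 of 8 were higher and none lower in complete smoke, and likewise 5 and none in filtered smoke. In A549 cells 2 of 8 were higher and none lower in complete smoke, and 4 were higher and 2 lower in filtered smoke. Of all genes tested 21.5% were higher in complete and 23.6% in filtered smoke of BEAS-2B cells, and 15.6% and 23.1% in A549 cells. RBKS, the ribokinase that salvages free ribose, was called in all 4 comparisons. It averaged 7.18 ± 1.60 CPM in complete smoke, 6.86 ± 1.03 CPM in filtered smoke and 3.21 ± 0.49 CPM in clean air in BEAS-2B cells (SD, n = 3). Its log2 fold changes were 1.16 in complete and 1.08 in filtered smoke there, and it was at 0.71 in complete and 0.86 in filtered smoke in A549 cells. DERA, which splits deoxyribose 5-phosphate, was at 0.97 and 0.85 in BEAS-2B complete and filtered smoke and, called in filtered smoke only, at 0.62 and 0.76 in A549 complete and filtered smoke. XYLB, the xylulokinase, was called in BEAS-2B cells, at 0.92 in complete and 0.74 in filtered smoke, and not in A549 cells, at -0.09 in complete and -0.26 in filtered smoke. H6PD, which runs the first steps of the oxidative branch in the endoplasmic reticulum, was lower in filtered smoke of A549 cells (-0.80, adjusted p = 0.0282). In clean air it was lower in BEAS-2B cells than in A549 cells, with 4.04 ± 0.96 CPM against 33.4 ± 6.8 CPM (adjusted p = 1.86e-07).

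Among 11 other NADPH-making and NADP kinase genes, 2 of 11 were higher in complete and 3 of 11 in filtered smoke of BEAS-2B cells, with none lower. In A549 cells 0 of 10 were higher in complete and 3 of 10 in filtered smoke, with 1 lower in each. These counts lie near the shares of all genes called higher, 21.5% in complete and 23.6% in filtered smoke of BEAS-2B cells and 15.6% and 23.1% in A549 cells, so they are no result about the list. ME3, the mitochondrial NADP-linked malic enzyme, was higher in BEAS-2B cells, at 1.20 in complete and 1.27 in filtered smoke, and at 0.55 in filtered smoke of A549 cells, where ME1 was not called, at -0.44. ALDH1L2, the mitochondrial formyltetrahydrofolate dehydrogenase, had in A549 cells 6.11 ± 1.75 CPM in complete smoke and 4.77 ± 1.54 CPM in filtered smoke, against 11.5 ± 0.7 CPM in clean air (SD, n = 3). It was called lower in both smokes there, at -0.90 in complete and -1.26 in filtered smoke on the log2 scale, and was not called in the other line, at -1.12 and -1.29. ALDH1L1, its cytosolic relative, was called in filtered smoke of BEAS-2B cells (1.30, adjusted p = 0.034), and MTHFD2L, a mitochondrial folate dehydrogenase, in complete smoke of BEAS-2B cells (0.85, adjusted p = 0.0204).

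Glycolysis shares sugar phosphates with the pathway. Of its 18 genes tested in BEAS-2B cells 12 were higher and 1 lower in complete smoke, and 13 higher and 2 lower in filtered smoke. Of 17 tested in A549 cells 8 were higher and none lower in complete smoke, and 9 higher and 1 lower in filtered smoke. Of all genes 21.5% were higher and 19.5% lower in complete and 23.6% higher and 24.9% lower in filtered smoke of BEAS-2B cells. In A549 cells these shares were 15.6% and 16.9% in complete and 23.1% and 23.5% in filtered smoke. TIGAR, a fructose bisphosphatase known to send glucose 6-phosphate into the pentose phosphate pathway, was the named gene that fell. In BEAS-2B cells it averaged 2.14 ± 0.99 CPM in complete smoke and 1.61 ± 0.52 CPM in filtered smoke, against 7.42 ± 1 CPM in clean air. The log2 fold changes were -1.76 (adjusted p = 0.00783) in complete and -2.19 (adjusted p = 0.00418) in filtered smoke. In A549 cells TIGAR was at -0.94 in complete smoke (adjusted p = 0.0909) and at -1.79 in filtered smoke (adjusted p = 0.00807). GAPDH, which oxidises the glyceraldehyde 3-phosphate that TKT can release and has many pseudogene copies, was called in all 4 comparisons, at 1.41 and 1.47 in BEAS-2B complete and filtered smoke and at 0.75 and 0.95 in A549 complete and filtered smoke. PFKP, a phosphofructokinase, was called in BEAS-2B cells, at 1.56 in complete and 1.84 in filtered smoke, and not in A549 cells, at 0.54 and 0.68. ALDOA, an aldolase, was called in all 4 comparisons, at 1.02 to 1.67, but its counts are uncertain because an annotated protein-coding gene overlaps it on the same strand.

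Of 12 citrate and malate genes that feed or drain the isocitrate dehydrogenases and malic enzyme, 8 were higher in complete and 8 in filtered smoke of BEAS-2B cells, and 8 in complete and 10 in filtered smoke of A549 cells, with none lower. Of all genes 21.5% were higher in complete and 23.6% in filtered smoke of BEAS-2B cells, and 15.6% in complete and 23.1% in filtered smoke of A549 cells. IDH3G, a subunit of the NAD-linked mitochondrial isocitrate dehydrogenase, was at 1.66 in complete and 1.76 in filtered smoke in BEAS-2B cells and at 0.99 and 1.20 in A549 cells. SLC25A11, the carrier that exchanges malate for oxoglutarate, was at 1.63 and 1.70 in BEAS-2B complete and filtered smoke and at 1.10 and 1.27 in A549 complete and filtered smoke. SLC25A1, the mitochondrial citrate carrier, was at 0.89 and 1.27 in BEAS-2B complete and filtered smoke and at 0.998 and 1.16 in A549 complete and filtered smoke. MDH2, the mitochondrial malate dehydrogenase, was at 1.4 and 1.45 in BEAS-2B complete and filtered smoke and at 0.84 in both smokes of A549 cells. All 4 genes were called in all 4 comparisons.

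Of 15 genes that spend NADPH, 3 were higher in complete and 5 in filtered smoke of BEAS-2B cells, with none lower. In A549 cells 3 were higher in complete and 4 in filtered smoke, with 1 lower in each. The higher counts lie near the shares of all genes, 21.5% in complete and 23.6% in filtered smoke of BEAS-2B cells and 15.6% and 23.1% in A549 cells, so they are no result about the list. TXNRD1, the cytosolic thioredoxin reductase and a known NRF2 target, was the one that was lower. It had 982 ± 129 CPM in complete smoke and 844 ± 148 CPM in filtered smoke, against 1910 ± 131 CPM in clean air, in A549 cells (adjusted p = 0.00558 in complete and 0.0016 in filtered smoke). In BEAS-2B cells it was at -0.99 in complete smoke (adjusted p = 0.0627) and at -0.84 in filtered smoke (adjusted p = 0.0913). BLVRB, a biliverdin reductase that uses NADPH, was called in all 4 comparisons, at 1.61 and 1.65 in BEAS-2B complete and filtered smoke and at 0.82 and 1.16 in A549 complete and filtered smoke. CYBA, the p22phox subunit of NADPH oxidases, was also called in all 4, at 2.03 and 2.18 in BEAS-2B complete and filtered smoke and at 0.90 and 1.22 in A549 complete and filtered smoke. In clean air 11 of the 15 were lower and 1 higher in BEAS-2B cells than in A549 cells, with a median log2 fold change of -2.15 against 0.01 over all genes. Of all genes 28% were lower and 27.3% higher in that comparison, where the line and the set of libraries cannot be told apart. The widest gap of those named was AKR1B10, an aldo-keto reductase, with 0.23 ± 0.05 CPM in BEAS-2B cells and 1360 ± 303 CPM in A549 cells.

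Of 7 genes that control NRF2, 1 was higher in each of the 4 comparisons, and none was lower in complete smoke of BEAS-2B cells, 1 in filtered smoke of BEAS-2B cells, 1 in complete smoke of A549 cells and 2 in filtered smoke of A549 cells. Of all genes 15.6% to 23.6% were higher and 16.9% to 24.9% lower in these comparisons, so these counts too are no result about the list. The higher gene was each time MAFF, a small MAF protein. It averaged 46.8 ± 1.4 CPM in complete smoke and 50.8 ± 5.8 CPM in filtered smoke, against 14.3 ± 3.1 CPM in clean air, in BEAS-2B cells. Its log2 fold changes were 1.72 and 1.82. In A549 cells it averaged 36.3 ± 20 CPM in complete smoke and 27.2 ± 10.3 CPM in filtered smoke, against 5.83 ± 0.79 CPM in clean air, at 2.65 and 2.23. CUL3, the scaffold of the ubiquitin ligase that KEAP1 serves, was lower in both smokes of A549 cells, at -0.46 in complete and -0.62 in filtered smoke, and in filtered smoke of BEAS-2B cells, at -0.71. NFE2L2, which encodes NRF2, was lower in filtered smoke of A549 cells (-0.68, adjusted p = 0.01) and was not called in the other 3 comparisons, at -0.29 to -0.65. Between the lines in clean air NFE2L2 was at 0.06 ± 0.23 (adjusted p = 0.838).

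The gene whose level ran most like each member over the 9 libraries of each line, among 8997 protein-coding genes, was TIMM44 for PGLS, AKR1B1 for PGD, DRG1 for RPIA, NMD3 for RPE, TUBG1 for TKT, NOB1 for TALDO1, ABI1 for ME1, PDHX for IDH1 and MAD2L2 for IDH2. The smaller of the 2 within-line Pearson correlations was 0.995 for TIMM44, 0.992 for TUBG1 and MAD2L2, 0.993 for NOB1 and 0.78 for NMD3. These values include the difference between smoke and clean air, share libraries and depth, and carry no p. AKR1B1, the closest to PGD, is itself an aldo-keto reductase of the list of genes that spend NADPH.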

How the data were processed

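The authors' deposited counts of reads per gene were made with STAR 2.7.10b on GRCh38, per the submitters' processing notes; the gene annotation they used is not given in the sources used here. Each file holds 3 count columns. The last column, which counts reads on 1 strand, exceeded the opposite strand's by a factor of 11.7 to 17.1 in every library, and it was used without the 4 summary lines. No 2 libraries held the same counts. Gene positions, lengths and GC content came from GENCODE release 29 (58225 of 62649 IDs), and promoters from RefSeq.

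In R 4.3.3, genes that passed filterByExpr were scaled by TMM and tested with edgeR 4.0.16 (robust quasi-likelihood), in 1 fit of the 9 libraries of a line, or of all 18 libraries for differences between lines. P-values were adjusted over all genes tested, and 0.05 was the threshold. Standard errors came from the test statistic. All 9 genes passed the filter in every fit. CPM values were computed from the counts with the TMM factors of all 18 libraries. Counting error is small at these counts, and intervals cover the spread between libraries.

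The 9 genes and the 8 lists were chosen with earlier results of these data known. Named from each list were up to 4 passing genes with the largest absolute log2 fold change over the 4 smoke against clean air comparisons. For each of the 9 genes the protein-coding gene with the highest smaller correlation over the lines was named (at least 5 CPM in both lines, pseudocount 0.1).

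The labels give samples a number, 1 to 3, in each group. Deviations of same-numbered samples from their group means correlated at over 0.1 in every pair in A549 cells (0.15 to 0.288 for complete smoke and 0.193 to 0.31 for filtered smoke, each with clean air). So they did for filtered smoke with clean air in BEAS-2B cells (0.148 to 0.555) and for complete with filtered smoke (0.278 to 0.643 in BEAS-2B and 0.348 to 0.701 in A549 cells). The numbers were taken as pairs there, but passing 0.1 does not establish pairs. Differently numbered samples passed it too, as BEAS-2B clean air sample 2 with complete smoke sample 3 (0.443). Samples of different lines did so as well, as A549 filtered sample 3 with BEAS-2B clean air sample 2 (0.431). Alternatives were the Wald test of DESeq2 1.42.0, its size factors, scaling by library size alone, no filter on low counts, offsets for GC content, length and span (mgcv 1.9.3), the block, both together, counts without strand, only the groups compared, and libraries left out. Only the main fit was tested on simulated data, for complete smoke against clean air in A549 cells. The fits of BEAS-2B cells, of all 18 libraries and of the alternatives were not.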

Additional observations from a re-analysis of the deposited data

How the results depend on the processing

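Over the 9 genes in the 4 smoke comparisons with clean air and between the lines in clean air, and PGLS, RPIA, IDH1 and IDH2 in the line differences, 686 values kept their direction and side of the threshold, 78 crossed to a call, 67 lost one and 30 turned sign; no value that turned sign was called. The number of the 9 genes called moved beyond 1.5 times as follows. For A549 complete smoke (2 called) it was 4 with the DESeq2 Wald test, 4 with only the groups compared and 6 with the replicate block. For A549 filtered smoke (5) it was 2 with the GC, length and span offsets and 3 with the block and offsets. For BEAS-2B complete smoke (4) it was 7 with the block and 7 with the block and offsets. For the line difference in complete smoke (0) it was 1 without the low-count filter, 1 with the offsets, 4 with the block, 4 with both and 5 without BEAS-2B clean air sample 1 and complete smoke sample 3. For that in filtered smoke (0) it was 3 with the block, 3 with both and 1 without those libraries. For BEAS-2B against A549 clean air (5) it was 8 with block and offsets. Calls over all genes moved too, with the block from 4951 to 8321 in A549 complete and from 6704 to 10315 in BEAS-2B complete smoke. For the line difference in complete smoke they went from 308 to 3541 with the block and to 3774 without the libraries named above. Leaving out 1 library gave 0 to 4 in A549 complete, 2 to 7 in A549 filtered, 2 to 7 in BEAS-2B complete and 1 to 6 in BEAS-2B filtered smoke. Over all genes these fits called 1422 to 6805, 4006 to 9015, 2916 to 9026 and 3652 to 9276, in the same order. The causes were not tested, beyond the fewer samples of these fits.

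In BEAS-2B complete smoke the sample numbers did not pair all samples (correlations of -0.123 to 0.619), so they share only a number there; the block added calls of PGD (0.552), TKT (1.05) and IDH1 (-0.896). Where the numbers were taken as pairs, the block ended no call of the 9 genes, and it added none between complete and filtered smoke. Between the lines in clean air the block added a call of PGLS (0.623). Same-numbered clean air samples of the 2 lines correlated at 0.0833, 0.00346 and 0.0891, under the 0.1 rule, so they share only a number.

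With library size alone, RPIA (0.414, 0.335), TALDO1 (0.32, 0.388), TKT (0.617 in filtered smoke) and PGD (0.0456 in filtered smoke) lost their calls in BEAS-2B cells. Signs turned with library size alone for RPE (-0.0559) and IDH1 (-0.0855) in A549 complete, RPE (-0.128) in A549 filtered, PGD (-0.13) and RPE (-0.408) in BEAS-2B complete and RPE (-0.651) in BEAS-2B filtered smoke. In the line differences library size alone turned PGD (-0.376), RPE (-0.352), TKT (-0.214), TALDO1 (-0.0432) and ME1 (-0.505) in complete smoke and PGD (-0.24), RPE (-0.523), TKT (-0.126), TALDO1 (-0.126) and ME1 (-0.452) in filtered smoke, none of them called. With the offsets the signs turned for RPE (-0.049) in A549 complete, RPE (-0.056) and IDH1 (0.0602) in A549 filtered and ME1 (0.0419) in BEAS-2B filtered smoke, and with block and offsets for the same genes (-0.05, -0.0574, 0.0633 and 0.0322). Counts without strand turned IDH1 in A549 filtered smoke (0.0103) and RPE between the lines (0.00331), which no low-count filter also turned (0.0382). Without BEAS-2B clean air sample 1 and complete smoke sample 3, RPE in BEAS-2B filtered smoke was -0.0388, RPE between the lines 0.108 and TALDO1 between the lines -0.153. Leaving out 1 library gave IDH1 -0.0478 to 0.0936 in A549 complete and -0.109 to 0.0392 in A549 filtered smoke and RPE -0.00277 to 0.0617 in A549 filtered and -0.0585 to 0.117 in BEAS-2B filtered smoke. Between the lines it gave RPE -0.0813 to 0.108 and TALDO1 -0.152 to 0.472.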
